A study of Mus musculus with 24 samples.

Results

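The genes described here are 26 genes of cholesterol synthesis and of its control by SREBP2, the membrane-bound transcription factor encoded by Srebf2. They were taken by name from a fixed list, which was chosen with earlier results of these data known. All 26 were among the 16118 protein-coding genes of the deposited table, and all 26 passed the filter on low values. The tissue was inguinal white adipose tissue, the fat under the skin of the groin, of 24 mice with 1 poly(A) RNA library per mouse. The mice formed 6 groups of 4. Males and females were taken at postnatal day 21 (p21), or at day 28 (p28) either with standard weaning (SW, parted from the dam on day 21) or with delayed weaning (DW, left with the dam). The labels give no strain, genotype or drug treatment, so the groups are described by sex, age and weaning only. The labels give each animal a number but do not say which animals were littermates.

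Cholesterol is made from acetyl-CoA through mevalonate, isoprenoid diphosphates, squalene and lanosterol. When sterols in the endoplasmic reticulum are low, the escort protein Scap carries SREBP2 to the Golgi, where the proteases encoded by Mbtps1 and Mbtps2 release the part that enters the nucleus and activates most genes of the pathway. When sterols are high, Insig1 and Insig2 hold Scap in the endoplasmic reticulum. Fat tissue stores much of the body's free cholesterol in its lipid droplets, and its own synthesis is low compared with that of the liver.

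The RefSeq promoter table (build GRCm38.p6, 250 bases before to 50 bases after a gene's start) held 22 of the 26 genes, with 28 windows, since some genes have more than 1 start. 4 windows are shown on the strand of the gene. Hsd17b7 and Msmo1 were called lower than at p21 in both SW and DW males, and Cyp51 in DW males but not in SW males. Hmgcs1, an early gene of the same pathway, passed no test. Capitals mark every match, on either strand, to the sterol regulatory element TCACNCCAC, the inverted CCAAT box ATTGG and the E-box CACGTG. A match that lies on the other strand appears as its reverse complement.
Hsd17b7, chr1:169969156-169969455, minus strand: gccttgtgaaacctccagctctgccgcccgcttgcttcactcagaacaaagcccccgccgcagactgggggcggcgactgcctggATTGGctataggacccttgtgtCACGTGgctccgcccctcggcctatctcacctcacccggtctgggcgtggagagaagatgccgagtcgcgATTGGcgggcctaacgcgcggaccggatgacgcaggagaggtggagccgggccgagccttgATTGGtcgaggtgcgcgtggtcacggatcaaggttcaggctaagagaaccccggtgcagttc
Msmo1, chr8:64733529-64733828, minus strand: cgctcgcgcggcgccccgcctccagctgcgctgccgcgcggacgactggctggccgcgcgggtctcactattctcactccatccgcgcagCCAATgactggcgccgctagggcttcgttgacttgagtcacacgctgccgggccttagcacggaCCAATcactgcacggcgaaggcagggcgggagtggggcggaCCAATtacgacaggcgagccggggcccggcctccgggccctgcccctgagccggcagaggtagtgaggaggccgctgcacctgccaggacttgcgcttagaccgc
Cyp51, chr5:4104648-4104947, minus strand: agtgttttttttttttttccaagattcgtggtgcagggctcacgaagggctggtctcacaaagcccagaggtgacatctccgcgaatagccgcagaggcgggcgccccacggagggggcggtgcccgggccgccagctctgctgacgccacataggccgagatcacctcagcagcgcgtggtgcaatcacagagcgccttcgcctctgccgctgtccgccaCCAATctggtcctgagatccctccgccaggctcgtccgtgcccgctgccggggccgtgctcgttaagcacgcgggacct
Hmgcs1, chr13:119690101-119690400, plus strand: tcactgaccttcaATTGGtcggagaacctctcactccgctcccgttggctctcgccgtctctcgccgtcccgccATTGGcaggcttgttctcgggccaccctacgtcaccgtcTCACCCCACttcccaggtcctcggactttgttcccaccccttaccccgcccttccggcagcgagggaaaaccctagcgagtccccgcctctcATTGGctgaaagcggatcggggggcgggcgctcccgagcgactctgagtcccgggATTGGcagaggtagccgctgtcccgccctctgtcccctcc

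At least 1 window held the inverted CCAAT box in 18 of the 22 genes (81.8%), against 41.1% of the 27025 genes in the table, and 18 of the 28 windows did, against 37.4% of all windows. The E-box was found in 5 genes (22.7%, against 8.09% of genes; 6 of 28 windows, against 7.15%). The sterol element, written with this strict spelling, was found in 1 gene (4.55%, against 1.44%), Hmgcs1, 137 bases before the start. Hsd17b7 had CCAAT boxes 165, 73 and 12 bases before its start and an E-box 143 bases before it, Msmo1 had 3 CCAAT boxes, and Cyp51 had 1. The 27025 genes are all those of the promoter table, not only the 16118 protein-coding genes of the data, and were not matched to the 22 in expression. These are matches of letters, not measured binding sites.

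Recovered reads ranged from 57600711 to 302145813 per library, and each of the 26 genes had 368 or more reads in every library, which sets the counting precision. Values are in the authors' normalised unit (reads divided by a factor of the sample), changes are differences of log2(value + 1) from limma, and a gene was called at an adjusted p under 0.05 over all 16005 genes tested. The adipocyte markers (7 genes) summed to 12952 or more in every library and none was at 0. DW females 82 and 83 stood apart from DW females 76 and 77 over all genes: across 15983 genes, a library's deviation from the gene mean had a correlation with transcript GC content of -0.375 in animal 82 and -0.541 in animal 83, against 0.342 in animal 76 and 0.220 in animal 77. Outside this group p21 male 37 had -0.431 and SW female 81 had 0.397. Calls and medians of the comparisons that use DW females are therefore also given without animals 82 and 83. Those fits keep only animals 76 and 77 as DW females.

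Per kilobase of exon, the 26 genes covered a wide range of levels. Exon length is that of all annotated exons of a gene merged, so the order also depends on how many are annotated. Pmvk, the mevalonate-phosphate kinase, was highest with a median of 61.9 normalised units per kilobase over the 24 libraries. Hmgcs1, which makes HMG-CoA, followed at 58.4, then Insig1 at 54.5, Acat2, the cytosolic thiolase of the first step, at 54.3, and Sc5d, a sterol desaturase, at 42.8. The lowest were the sterol reductase Tm7sf2 at 1.47, the protease gene Mbtps2 at 1.61 and the ketone reductase Hsd17b7 at 2.17. Pmvk lay above 96.8% of all genes and Tm7sf2 above 36.3%. The ranges over libraries of the 4 highest genes overlapped (Pmvk 24.5 to 104 and Acat2 36.7 to 75.2 per kilobase). These ranges pool all groups, and the order of the genes within each library was not compared.

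**Figure D1:**
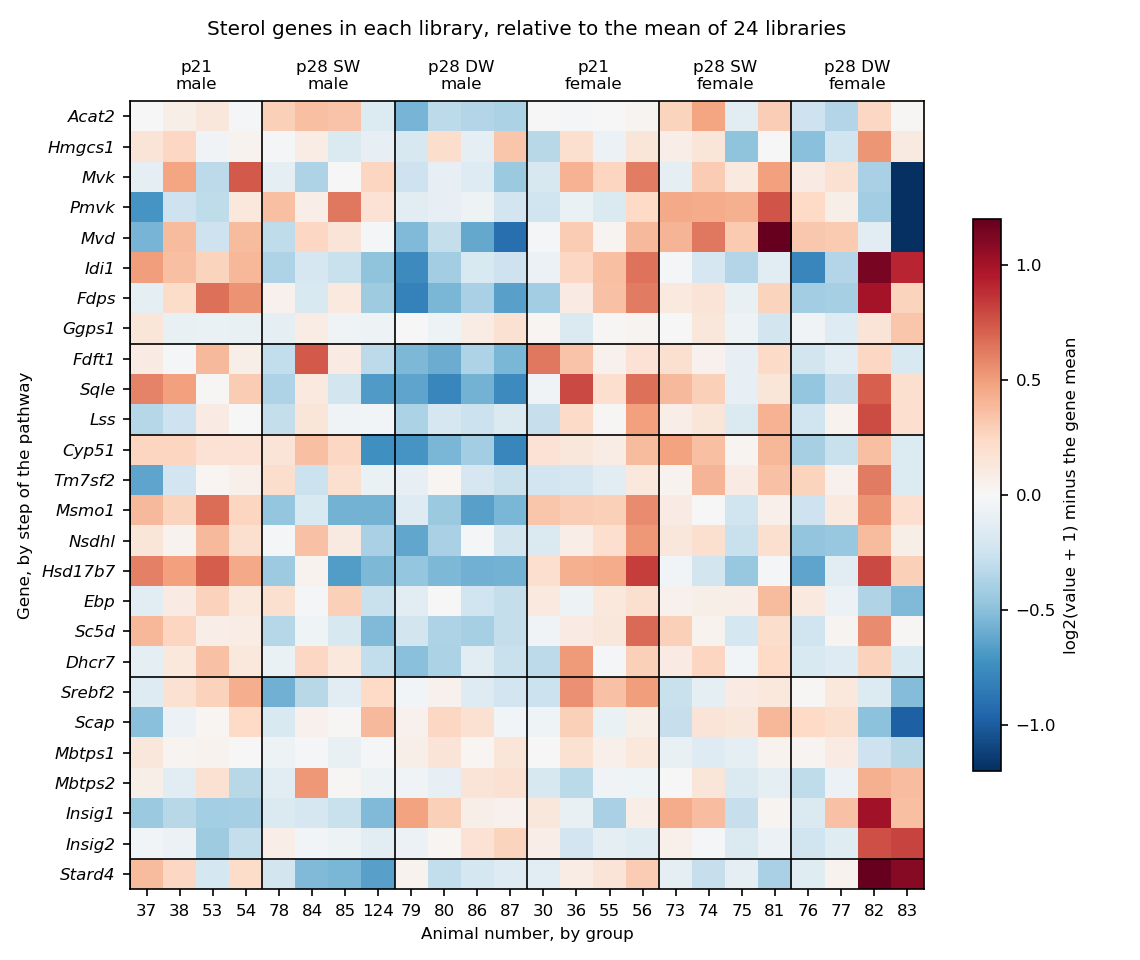
Colour gives log2(value + 1) minus the gene's mean over 24 libraries, for 26 genes (rows, by step of the pathway) and 24 animals (columns, by group); colours stop at 1.2 in either direction. Hsd17b7 and Msmo1 are red in all p21 columns, DW males are blue for most enzymes, and DW females 82 and 83 differ from 76 and 77.

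The first comparison asked how the depot changed over the week from p21 to p28 when weaning was standard. In males 2 of the 26 genes were called (7.69%), both lower, against 11.9% of all genes. Both encode enzymes that act in turn to remove methyl groups from the lanosterol ring: Msmo1, the methylsterol oxidase, and Hsd17b7, the ketone reductase. The median change of the 26 genes was -0.11, against 0.01 over all genes.

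Msmo1 was at 34.4, 34.7, 37.6 and 46.0 in p21 males and at 19.0, 19.0, 20.4 and 25.0 in SW males. Every p21 male was above every SW male. The change was -0.84 (SE 0.145, limma adjusted p 0.000841), and the call held in each of 17 other fits. Hsd17b7 was at 15.9, 16.3, 17.7 and 19.3 in p21 males and at 6.76, 7.46, 8.12 and 11.7 in SW males, again with no overlap. It fell by 0.97 (SE 0.213, limma adjusted p 0.00535), also in each of 17 other fits.

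In SW females 1 of the 26 genes was called (3.85%), against 11.6% of all genes, and it was again Hsd17b7. Its values were 13.1, 15.6, 15.8 and 20.9 in p21 females and 8.01, 9.58, 11.0 and 11.1 in SW females, with no overlap. The change of -0.66 (SE 0.213) had a limma adjusted p of 0.0484, and the call was lost in 7 of 8 fits that left out 1 animal (adjusted p up to 0.162). Msmo1 was at 35.0 to 42.7 in p21 females and 24.0 to 30.7 in SW females, a difference of -0.39 (SE 0.145) that did not pass (limma adjusted p 0.0924). Whether the sexes differed in this change was tested by an interaction: 0 of the 26 genes were called, against 1.03% of all genes, with 1 at an unadjusted p under 0.05 in limma (Msmo1, -0.45, p 0.038) and 0 called by edgeR or DESeq2.

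Averaged over the sexes, 8 of the 26 genes were called from p21 to p28 SW (30.8%, against 25.8% of all genes), 7 lower and 1 higher. Hsd17b7 fell by 0.81 (SE 0.151, limma adjusted p 0.000448) and Msmo1 by 0.61 (SE 0.103, limma adjusted p 0.000171). Idi1, the isomerase of the isoprenoid units, fell by 0.59 (limma adjusted p 0.0314), and Sqle, the squalene epoxidase that limits the later pathway, fell by 0.43 (limma adjusted p 0.0456). Stard4, a sterol transfer protein, fell by 0.49, Srebf2 itself by 0.36, and Sc5d by 0.31, with limma adjusted p-values of 0.0348, 0.0466 and 0.0482. Pmvk rose by 0.59 (SE 0.162, limma adjusted p 0.0103). The correlation of the change from p21 to SW with GC content was 0.37 over the 26 genes in males and 0.41 in females. Over all genes it was 0.14 and 0.10. GC-corrected values called the same 8 genes on average over the sexes, and the part of GC content was not tested further. The calls of Hsd17b7, Msmo1 and Pmvk held in all 25 other fits. The number called fell to 3 without p21 female 56, to 4 without p21 male 37 or 38, SW male 85, p21 female 55 or SW female 74, and to 5 without p21 male 54, SW male 78 or 124, or SW female 81.

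Pmvk was the 1 gene of the 26 called higher from p21 to SW averaged over the sexes. In males it was at 64.3, 85.0, 88.6 and 115 at p21 and at 111, 119, 135 and 164 after SW. In females it was at 89.3 to 125 at p21 and at 142, 144, 145 and 179 after SW. The ages did not overlap in females and did in males. The other mevalonate kinase, Mvk, had a mean difference over the sexes of -0.16 (limma adjusted p 0.588), and Mvd, the decarboxylase that follows Pmvk, one of 0.25 (limma adjusted p 0.425). Hmgcs1 had a difference of -0.10 (limma adjusted p 0.594).

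**Figure D2:**
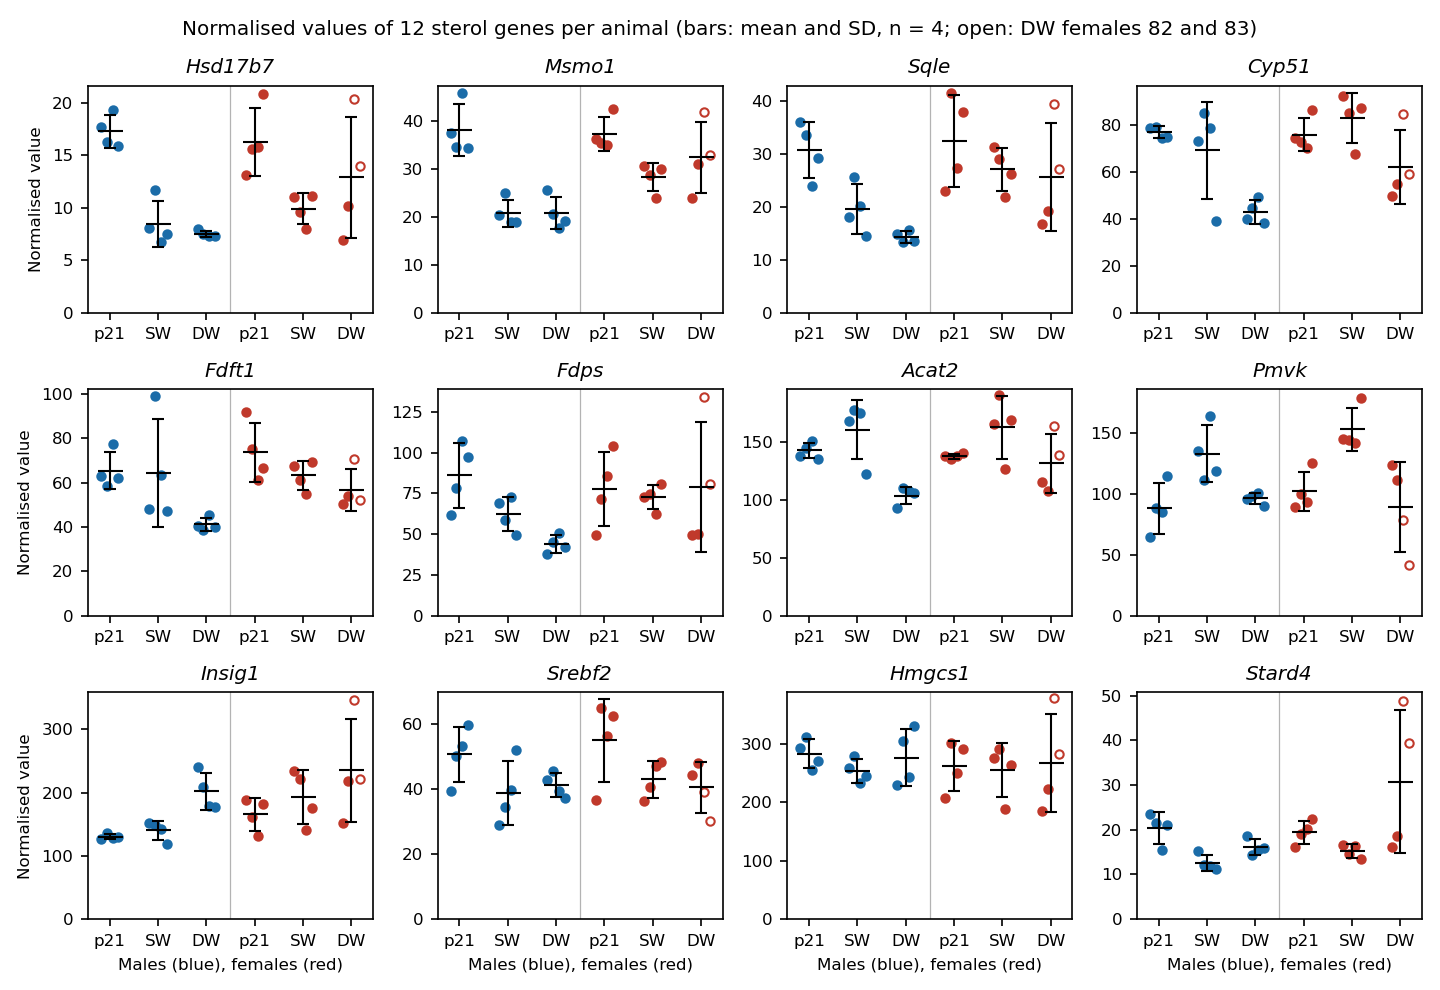
Normalised values (vertical axis, from 0) of 12 of the genes in each animal, males in blue and females in red, with the mean and SD of 4 animals. Hsd17b7 falls from 17.3 to 8.50 (SW) and 7.50 (DW) on average in males, and the open points (DW females 82 and 83) are the highest of their group for Stard4 and the lowest for Pmvk.

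The second comparison asked what happened over the same week when the young stayed with the mother. In males 9 of the 26 genes were called (34.6%), 8 lower and 1 higher, against 15.0% of all genes. The 8 that fell lie along the enzymes from the first step to the sterol desaturase, and the 1 that rose was Insig1. The median change was -0.37, against 0.02 over all genes, and 18 of the 26 differences were negative. In 11 of the 26 genes every DW male was below every p21 male, against 10.7% of all genes. The SW and DW changes share the p21 animals, so they are not independent of each other.

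Early in the pathway, Acat2 was at 136, 138, 145 and 151 in p21 males and at 93.4, 106, 108 and 110.4 in DW males. It fell by 0.45 (SE 0.132, limma adjusted p 0.026). Fdps, which makes farnesyl diphosphate, was at 61.7, 78.2, 97.5 and 107 at p21 and at 37.7, 42.1, 45.3 and 50.9 after DW. It fell by 0.93 (SE 0.251, limma adjusted p 0.0168). Neither gene had overlapping groups. Idi1 was lower by 0.78 (SE 0.280) and missed the threshold (limma adjusted p 0.0618). Hmgcs1 was at 256 to 313 in p21 males and 229.7 to 331 in DW males, with a difference of -0.04 (SE 0.180).

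At the squalene steps, Sqle was at 23.9, 29.3, 33.5 and 36.1 in p21 males and at 13.3, 13.5, 14.8 and 15.6 in DW males. All 4 DW males lay below all 4 p21 males. Sqle fell by 1.04 (SE 0.221, limma adjusted p 0.00388). Fdft1, squalene synthase, was at 58.7 to 77.5 at p21 and at 38.8, 40.2, 40.3 and 45.4 after DW, and fell by 0.65 (SE 0.176, limma adjusted p 0.0171). Lss, lanosterol synthase, differed by -0.13 (SE 0.180, limma adjusted p 0.685).

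After lanosterol, 4 of 8 genes were called lower in DW males. Cyp51, the lanosterol demethylase, was at 74.4, 74.6, 78.7 and 79.1 in p21 males and at 38.0, 39.8, 44.7 and 49.1 in DW males. The groups lay far apart, and the change was -0.83 (SE 0.183, limma adjusted p 0.00483). Msmo1 was at 17.8, 19.2, 20.7 and 25.6 in DW males, against 34.4 to 46.0 at p21, and fell by 0.84 (SE 0.145, limma adjusted p 0.000825). Hsd17b7 was at 7.27, 7.29, 7.49 and 7.94, against 15.9 to 19.3, and fell by 1.10 (SE 0.213, limma adjusted p 0.00203). Sc5d was at 156, 158, 168 and 176, against 216 to 270.1, and fell by 0.52 (SE 0.160, limma adjusted p 0.0316). Nsdhl, the dehydrogenase that acts between Msmo1 and Hsd17b7, was lower by 0.50 (limma adjusted p 0.0749) and Dhcr7, a late reductase, by 0.44 (limma adjusted p 0.0611), and neither passed. Ebp and Tm7sf2 differed by -0.26 and 0.06 (limma adjusted p 0.199 and 0.861).

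Among the regulators in DW males, Insig1 was at 126, 129, 129.8 and 136 at p21 and at 178, 179.6, 209 and 241 after DW. Every DW male was above every p21 male, and Insig1 rose by 0.62 (SE 0.188, limma adjusted p 0.0307). The calls of Insig1 and Sc5d were each lost in 5 of 8 fits that left out 1 animal (limma adjusted p up to 0.0964 and 0.0765), and that of Acat2 in 3. The remaining regulators passed no test: Srebf2 differed by -0.28, Scap by 0.19, Insig2 by 0.30, Mbtps1 by 0.04 and Mbtps2 by 0.10. Without p21 male 53 (57600711 recovered reads, the fewest) 5 genes were called, Sqle, Hsd17b7, Msmo1, Cyp51 and Sc5d. Also 5 were called without p21 male 53, p21 female 36 and SW male 84 together. The correlation of the change with GC content was 0.08 over all genes and 0.10 over the 26, and on GC-corrected values 13 of the 26 were called. The count over all genes on GC-corrected values is not given here.

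In DW females 0 of the 26 genes were called against p21 by limma, against 12.1% of all genes. At an unadjusted p under 0.05 limma gave 8 (27.6% of all genes), edgeR called 0 after adjustment and DESeq2 called 3 (Insig1, Insig2 and Stard4). Of all 16005 genes, edgeR called 1666 and DESeq2 2376. The median difference of the 26 genes was -0.19, and 19 of the 26 were negative. Sqle was at 22.9, 27.3, 37.9 and 41.4 in p21 females and at 16.8, 19.2, 27.1 and 39.4 in DW females. Hsd17b7 was at 6.93, 10.2, 14.0 and 20.4 in DW females, with the 2 lower values in animals 76 and 77 and the 2 higher in 83 and 82. Without animals 82 and 83 only 76 and 77 remained as DW females. The median was then -0.21, and 3 genes were called, all lower. They were Hsd17b7 (-0.86, limma adjusted p 0.00799), Idi1 (-0.87, limma adjusted p 0.00435) and Sqle (-0.78, limma adjusted p 0.0314). Their transcripts have a GC content of 43.9%, 41.9% and 48.6%. With all animals, the change had a correlation with GC content of -0.28 over all genes and -0.51 over the 26. GC-corrected values of all animals called 0 of the 26. The part of GC content was not tested beyond that fit. Without animal 76 alone 5 were called (Insig1, Insig2, Stard4, Ebp and Mbtps1), without 77 alone 2, and without 82 or p21 female 30 alone 1. Over all genes, limma called 3123 of 16073 without 76 and 2530 of 16064 without 77, against 1938 of 16005 with all animals. It called 1307 of 16068 without 82 and 1350 of 16063 without p21 female 30.

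**Figure D3:**
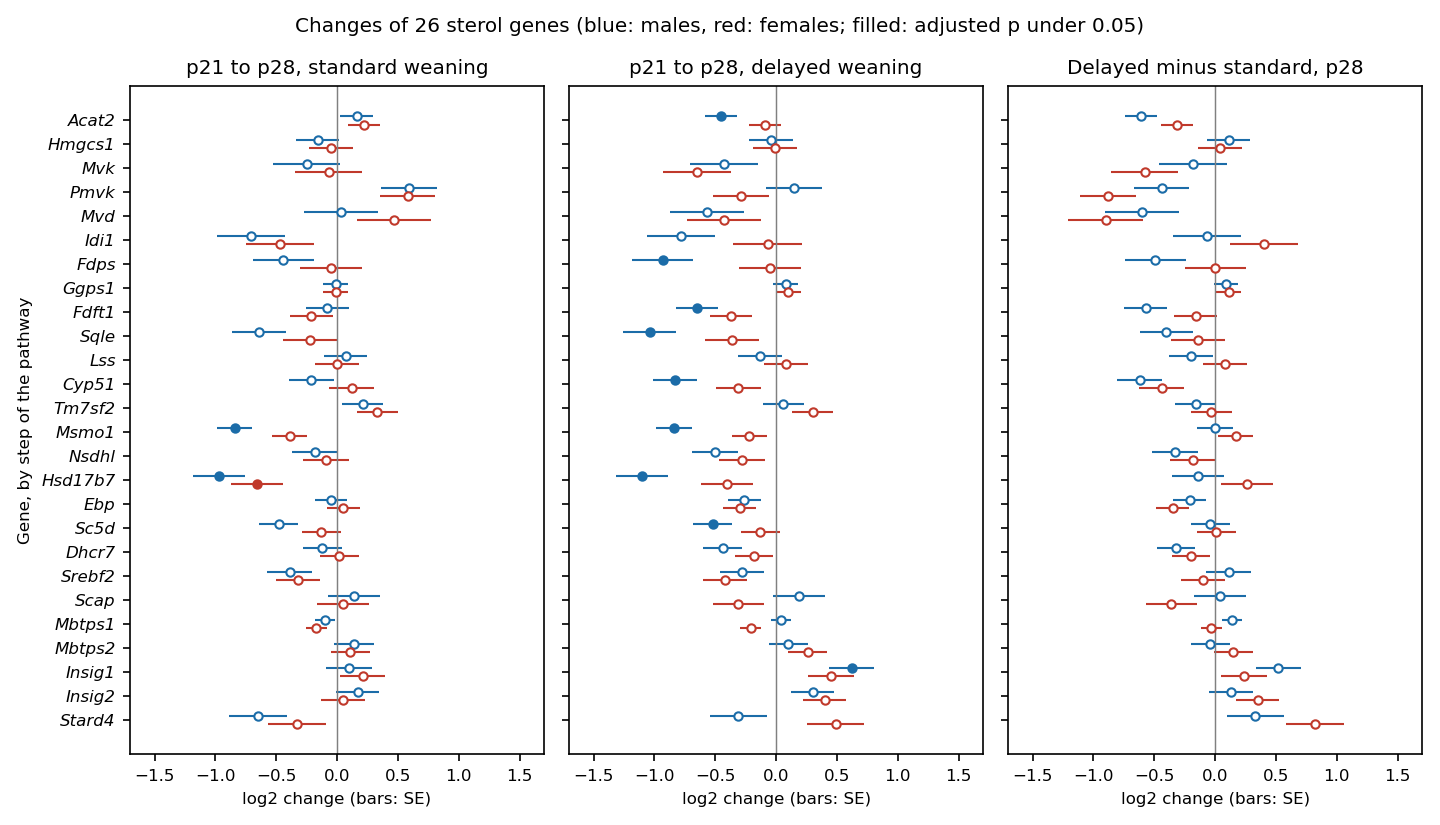
Log2 changes (horizontal axis, with SE) of the 26 genes from p21 to p28 SW, from p21 to p28 DW and between DW and SW at p28, in males (blue) and females (red); filled points were called. In DW males 9 points are filled, and between DW and SW none is filled in either sex.

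The direct comparison of DW with SW at p28 is the test of whether weaning changed these genes. In males 0 of the 26 were called by limma, against 0.256% of all genes. Limma gave 4 at an unadjusted p under 0.05 (6.94% of all genes), edgeR called 0 and DESeq2 called 2 (Acat2 and Cyp51). Of all 16005 genes, edgeR called 29 and DESeq2 114. More genes were called from p21 to DW than from p21 to SW in males, but the difference between DW and SW males was itself called for none. Acat2 came nearest: it was at 123, 168, 175 and 178 in SW males and at 93.4, 106, 108 and 110.4 in DW males, without overlap, and the difference was -0.61 (SE 0.132, limma adjusted p 0.0519). Cyp51 was at 39.0, 73.2, 78.7 and 85.0 in SW males, where animal 124 lay within the DW range, and differed by -0.62 (SE 0.183, limma adjusted p 0.265). Without SW male 124 both were called, Cyp51 at -0.87 and Acat2 at -0.73. Msmo1 and Hsd17b7 differed by -0.00 and -0.14.

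In females 0 of the 26 were called between DW and SW by limma, against 1.27% of all genes, with 7 at an unadjusted p under 0.05 (18.9% of all genes). EdgeR called 0 and DESeq2 called 2 (Pmvk and Stard4), against 71 and 290 of all 16005 genes. Pmvk was at 42.0, 78.8, 111 and 124 in DW females and at 142 or more in every SW female, and the difference was -0.88 (SE 0.229, limma adjusted p 0.0615). The lower values, 42.0 and 78.8, were those of animals 83 and 82. The median difference was -0.03, with 14 of 26 negative. Without animals 82 and 83 it was -0.20, with 22 negative and 0 called. Without animal 76 alone 6 genes were called, and without 77 alone 2 (Pmvk and Stard4). Over all genes, limma called 1996 of 16073 without 76 and 831 of 16064 without 77, against 204 of 16005 with all animals. The correlation of this difference with GC content was -0.42 over all genes and -0.71 over the 26 genes; the part of GC content in the result was not tested beyond the corrected fit, which called 1 gene (Pmvk).

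Averaged over the sexes, 3 of the 26 genes were called between DW and SW (11.5%, against 2.21% of all genes), all lower after DW. Acat2 was lower by 0.46 on the log2 scale, a difference of -0.46 (SE 0.093, limma adjusted p 0.00698), and this call held in all 27 other fits. Acat2 was at 108, 116, 139 and 164 in DW females and at 127, 166, 169.6 and 191 in SW females, so the female groups overlapped. Cyp51 differed by -0.53 (SE 0.129, limma adjusted p 0.0302) and Pmvk by -0.66 (SE 0.162, limma adjusted p 0.0317). Each of these was lost in 10 of 16 fits that left out 1 animal. The median difference was -0.08, and -0.15 without DW females 82 and 83. Without those animals Pmvk was not called (-0.40, limma adjusted p 0.099), while Cyp51 (-0.64, limma adjusted p 0.0165) and Acat2 were. With the run of animal numbers as a covariate Cyp51 was not called (limma adjusted p 0.0718). Mvd (-0.75) and Stard4 (0.58) missed the threshold, with limma adjusted p-values of 0.0731 and 0.0734. Acat2 alone remained called without SW male 78 or 85, DW male 79, 80 or 87, or SW female 73, 74 or 81. Of the 26 genes, 7 were called without DW female 76 and 5 without 77. Over all genes, limma called 1098 of 16073 and 498 of 16064 in these fits, against 353 of 16005 with all animals. The change in the weaning difference between the sexes was tested by an interaction. It called 0 of the 26 genes, against 0.0187% of all genes, with 0 at an unadjusted p under 0.05 in limma and 0 called by edgeR, by DESeq2 or without DW females 82 and 83. The median interaction was -0.14, and 0.03 without those animals.

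Males and females of the same age and weaning were compared next. At p21 0 of the 26 genes were called, against 0.356% of all genes. None had an unadjusted p under 0.05 in limma, and edgeR and DESeq2 called 0. At p28 SW 0 were called, against 3.54% of all genes, with 4 at an unadjusted p under 0.05 (9.16% of all genes) and 0 called by edgeR or DESeq2. There 21 of the 26 differences were lower in males, with a median of -0.17 against -0.01 over all genes. At p28 DW 1 gene was called (3.85%, against 2.46% of all genes): Msmo1 was at 17.8 to 25.6 in males and at 23.9, 31.0, 32.9 and 42.0 in females (-0.60, SE 0.145, limma adjusted p 0.0257). EdgeR called 3 and DESeq2 called 6 there, against 382 and 848 of all 16005 genes. The median of the 26 was -0.29, against 0.01 over all genes, and 12 had an unadjusted p under 0.05 (19.7% of all genes). Without DW females 82 and 83 0 were called and the median was -0.15. The call of Msmo1 was also lost without DW male 80, 86 or 87, or DW female 82 or 83 alone. Of the 26 genes, 8 were called without DW female 76 and 5 without 77. Over all genes, limma called 1822 of 16073 and 1502 of 16064 in these fits, against 394 of 16005 with all animals.

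The 4 DW females differed among themselves, and the direction went with the GC content of the gene. In 15 of the 26 genes both animals 82 and 83 were above both 76 and 77, against 33.7% of all genes. These 15 had a median transcript GC content of 45.8% (40.0% to 50.6%). In 7 genes both were below (39.4% of all genes), with a median GC content of 57.0% (50.2% to 59.1%): Mvk, Pmvk, Mvd, Ebp, Srebf2, Scap and Mbtps1. Stard4 was at 48.8 and 39.4 in animals 82 and 83, above the 13.4 to 16.5 of SW females, and at 16.1 and 18.5 in animals 76 and 77. Mvd was at 13.3 and 4.50 in animals 82 and 83 and at 18.6 and 18.4 in animals 76 and 77, with SW females at 18.5 to 35.5. Over the 26 genes the deviation of a library had a correlation with GC content of -0.649 in animal 82, -0.820 in animal 83, 0.691 in animal 76 and 0.462 in animal 77. The 26 genes share each library, so these values describe the libraries and carry no test.

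**Figure D4:**
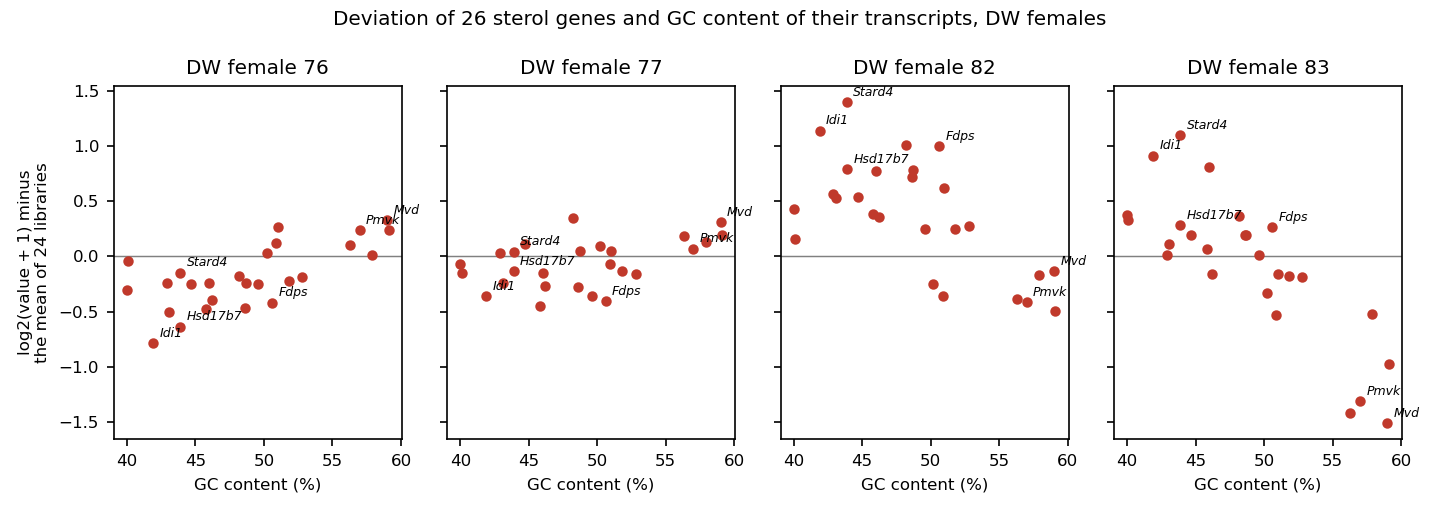
Each panel is 1 DW female and each point 1 of the 26 genes: GC content of the longest transcript (horizontal axis, %) against log2(value + 1) minus the mean of 24 libraries (vertical axis). Points rise with GC content in animals 76 and 77 and fall in 82 and 83.

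Over the 13 comparisons, 13 of the 26 genes were called at least once by limma, against 36.6% of all genes. Limma with all animals called the other 13 in none: Hmgcs1, Mvk, Mvd, Ggps1 (a branch to geranylgeranyl diphosphate), Lss, Tm7sf2, Nsdhl, Ebp, Dhcr7, Scap, Mbtps1, Mbtps2 and Insig2. Of these, DESeq2 called Dhcr7, Insig2 and Mvd in 1 comparison each, and GC-corrected values called Nsdhl, Dhcr7 and Mvd.

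Many of the enzymes varied together between animals. After the group means were removed, the median correlation over the 325 pairs of the 26 genes across 24 animals was 0.36, and 0.22 without DW females 82 and 83, against 0.00 over all pairs of the genes tested. Hsd17b7 had the highest median correlation with the other genes (0.59), but without animals 82 and 83 Lss did (0.44, with Hsd17b7 at 0.41). The correlation of Hsd17b7 with Msmo1 was 0.86, and 0.81 without the 2 animals. Scap (-0.37), Mbtps1 (-0.23), Mvk (-0.16) and Srebf2 (-0.15) had negative medians, which were -0.06, 0.11, 0.14 and 0.00 without animals 82 and 83. The animals share depth and GC content with their libraries, and no test was made.

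Other genes of sterol handling were read from further lists. Of 13 further SREBP targets and genes of sterol uptake and transport, 5 were called lower and 1 higher in SW males against p21. The calls against p21 were 5 and 2 in SW females, 6 and 2 in DW males, and 8 and 1 in DW females. Of all genes, 4.97% were called lower and 6.90% higher in SW males, 4.23% and 7.39% in SW females, 6.10% and 8.86% in DW males, and 6.16% and 5.95% in DW females. Erg28, a scaffold of the sterol demethylating enzymes, was 32.5 ± 1.58 (SD, n = 4) in p21 males and 21.0 ± 1.42 in SW males, and fell by 0.47 on average over the sexes (limma adjusted p 5.47e-06). Npc2, which moves cholesterol out of lysosomes, rose by 0.67 in the same comparison (limma adjusted p 1.03e-05). Between DW and SW, averaged over the sexes, 1 of the 13 was called higher and 1 lower (1.19% and 1.01% of all genes), with a median difference of -0.05. The lower gene was Pcyt2, of phosphatidylethanolamine synthesis, which differed by -0.48 (limma adjusted p 0.0438). In either sex alone limma called 0 of the 13 between DW and SW.

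Of 10 genes of sterol efflux and the LXR receptors, 4 were called higher and 0 lower from p21 to SW averaged over the sexes. Among the 4 were Nceh1 (0.37), Mylip (0.30) and Abca1 (0.31). Of all genes, 14.8% were called higher and 11.0% lower there. Limma called 0 of the 10 in either sex alone (5 in males and 2 in females at an unadjusted p under 0.05). Of 10 genes of SREBP1c and fatty acid synthesis, 6 were called higher and 0 lower from p21 to SW averaged over the sexes. Scd1, the stearoyl desaturase, rose by 1.92 and Elovl6, a fatty acid elongase, by 1.82. From p21 to SW in each sex alone, 5 of these 10 were called higher in males and 3 in females, and 0 lower. From p21 to DW, 1 was called higher and 0 lower in males, and 2 higher and 2 lower in females. Scd1 rose in both sexes from p21 to DW, by 1.95 and 1.85. Between DW and SW, limma called 0 of the 10 in either sex. Averaged over the sexes it called 1, lower (1.01% of all genes were called lower), with a median difference of -0.53 over the 10.

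Cell type markers moved with age as well. All 5 macrophage markers were called higher from p21 to SW averaged over the sexes, and all 3 erythroid markers lower. Of the 7 adipocyte markers 2 were called higher and 2 lower there, against 14.8% and 11.0% of all genes. The adipocyte sum was 12952 to 15593 in p21 males, 16523 to 22508 in SW males and 17436 to 21157 in DW males. In females it was 15986 to 20828, 15597 to 20708 and 15895 to 20497 in the same order. The macrophage sum was 96.2 to 243 in p21 males and 347 to 428 in DW males, and the erythroid sum had a median of 85.8 and 26.5. The endothelial sum was 776 to 912 in p21 males and 1304 to 1431 in DW males. In females it was 699 to 1177 at p21 and 638 to 1184 after DW. The skeletal muscle sum was 3.29 to 519 in p21 males, 419.7 to 6114 in SW males and 303 to 6573 in DW males. Of the 3 brown or beige markers 1 was called in DW males against p21, lower, where 6.10% of all genes were called lower. It was Ucp1, with a difference of -2.02 on the log2 scale (limma adjusted p 0.0205). The median difference of the 3 markers was -0.64. The mammary epithelial sum was 264 to 368 in SW females, 103 to 219.5 in DW females and at most 42.0 in males, and 7 of its 9 markers were at 0 in at least 1 p21 male. The part of these cells in the sterol genes' changes was not tested, and in bulk tissue fewer cells of a type and less RNA per cell cannot be told apart.

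The authors' deposited table lists its own fold changes for these comparisons. Under 0.05 in its column of adjusted p-values stood 12 of the 26 genes as higher and 1 as lower in p21 than in DW males (31.3% of all genes were under it), and 1 as higher and 6 as lower in DW than in SW males (7.59%). The authors' deposited table also had 12 genes as higher and 1 as lower in DW females than in DW males (19.6% of all genes), and 3 as higher and 5 as lower in DW than in SW females (16.9%). Those columns lay near the unadjusted p-values of DESeq2 on the recovered reads: between DW and SW males the authors' deposited table had 1222 genes under 0.05, against 1244 by unadjusted and 115 by adjusted DESeq2 p-values.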

How the data were processed

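Poly(A) RNA of 24 mice was sequenced after KAPA mRNA HyperPrep library preparation on a NovaSeqXPlus, per the labels' protocols. Per the submitters' processing notes, fastp, HISAT2, featureCounts, DESeq2 1.38.3 and the build mm10 were used; their settings and the strand setting are not given in the sources used here. The authors deposited a normalised signal per gene and sample. Every value (100%, tolerance 0.001) was a whole multiple of what 1 read was worth in that sample, so reads were recovered. The authors also deposited log2 fold changes and adjusted p-values for 15 comparisons, of which 9 matched groups used here. Age, sex and weaning were taken from the characteristics; titles of p21 libraries give another age and, for 1 animal, another number. Gene starts equalled GENCODE M21 in 2.23% of 16095 genes, so no deposited coordinates are printed; that annotation gave exon length and GC content.

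From the deposited values, repeated rows (90) were dropped, genes were kept by filterByExpr (minimum count 10) on recovered reads, and log2(value + 1) was fitted with limma 3.58.1 in R 4.3.3 (lmFit, eBayes with trend; 6 group coefficients, 18 residual degrees of freedom, Benjamini-Hochberg over 16005 genes, 13 contrasts). The log2(value + 1) scale understates changes of low genes. Scripts were tested on simulated data. edgeR 4.0.16 and DESeq2 1.42.0 on recovered reads, other filters, a pseudocount of 0.1, only the compared groups, no trend, the run of animal numbers and leaving out animals were alternatives; the fits without DW females 82 and 83 and on GC-corrected values (each library's loess trend on GC removed) were added after seeing the data. On the recovered reads edgeR called 2283 genes from p21 to DW in males and 1666 in females. Replicates differed beyond sampling noise (smallest chi-square per degree of freedom 79.52 over 36 pairs), so none were merged. The labels name separate animals. The 26 genes, the further lists and the rule for named genes (all members, and up to 4 per further list by smallest p) were chosen with earlier results of these data known. Some genes of the further lists are not reported here.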

Additional observations from a re-analysis of the deposited data

Results flagged for a closer look

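In 7 of 156 groups of 4 animals (26 genes in 6 groups) 1 animal stood apart from the other 3, where chance gives about 1 in 20, or 7.8. All values are log2(value + 1). SW female 81 was high for Pmvk, at 7.49 against 7.16 to 7.19, and for Ebp, at 6.12 against 5.78 to 5.81. SW female 75 was low for Nsdhl, at 6.28 against 6.68 to 6.74, and had the lowest value of its group in 18 of the 26 genes. SW male 124 was low for Acat2, at 6.95 against 7.40 to 7.48, and DW female 82 was high for Dhcr7, at 5.33 against 4.88 to 4.90. Ggps1, which makes geranylgeranyl diphosphate and was called in no comparison, was high in p21 male 37, at 5.66 against 5.43 to 5.44, and low in p21 female 36, at 5.35 against 5.53 to 5.56.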

How the results depend on the processing

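No paired analysis was made, since each mouse gave 1 library and the labels do not say which animals were littermates. Every p28 group holds animals with numbers up to 80 and from 81 on. DW females 76 and 77 are in the lower run and 82 and 83 in the higher. What the runs stand for is not given in the labels. As a covariate, the run of animal numbers cost 1 call between DW and SW averaged over the sexes (Cyp51). Of 503 other fits of the 24 calls of a gene in a comparison, 388 kept the call, 115 lost it and 0 changed sign. From p21 to SW in males, where limma called 2, DESeq2 and a fit of only the compared groups called 5 each and GC-corrected values 7. Over all genes, DESeq2 called 2562 of 16005 and the fit of only the compared groups 922 of 15233. From p21 to SW in females (1 called) the pseudocount of 0.1, the minimum value of 10, and the fit without p21 male 53, p21 female 36 and SW male 84 called 0. Only the compared groups and GC-corrected values called 3 each, and the former called 2445 of 15487 genes. From p21 to DW, the fit without those 3 libraries called 5 in males (limma called 9), and in females (0 called) DESeq2 and the fit without DW females 82 and 83 called 3. Between DW and SW, DESeq2 called 2 in males, 2 in females and 5 on average over the sexes (114, 290 and 586 of all 16005 genes). A pseudocount of 0.1 called 1 in males, GC-corrected values 1 in each sex, and only the compared groups 1 on average over the sexes. Between the sexes at DW, edgeR called 3, DESeq2 6, and the minimum value of 10, only the compared groups and the fit without animals 82 and 83 called 0. Leaving out 1 animal gave, from p21 to SW, 2 to 4 in males, 0 to 1 in females and 3 to 8 on average, and from p21 to DW 5 to 8 in males and 0 to 5 in females. It gave 0 to 2 in males, 0 to 6 in females and 1 to 7 on average between DW and SW, and 0 to 8 between the sexes at DW. The highest counts in females, on average and between the sexes at DW came without DW female 76, where limma also called more of all genes. Leaving out 1 animal gave 0 to 0 between the sexes at p21 and SW and for both interactions. The causes were not tested.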
